A study of Mus musculus with 9 samples.

Results

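The drug and xenobiotic metabolism enzymes of AML12 cells, a mouse hepatocyte line, were taken by gene symbol: cytochromes P450 of families 1 to 4 with their reductase Por, UDP-glucuronosyltransferases (Ugt), sulfotransferases (Sult), glutathione transferases (Gst and Mgst), carboxylesterases (Ces), epoxide hydrolases (Ephx), quinone reductases (Nqo), aldo-keto reductases (Akr) and carbonyl reductases (Cbr). The symbols matched 64 of the 10259 genes in the table of the Ang(1-7) and PA/OA groups. Of these, 14 were oxidation genes (Cyp and Por), 32 conjugation genes (Ugt, Sult, Gst and Mgst), 14 reduction genes (Akr, Cbr and Nqo) and 4 hydrolysis genes (Ces and Ephx).

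RNA was sequenced from 3 groups of 3 samples. In the Ang(1-7) group cells were given 100 nM of the heptapeptide Ang(1-7) and, 30 min later, 0.2 mM PA with 0.4 mM OA (taken here to mean palmitic and oleic acid) for 24 h. The PA/OA group was given the same fatty acids for 24 h without the peptide, and the control group was left untreated. No group was labelled as given a fatty acid carrier alone or the peptide alone, so a carrier and the fatty acids cannot be told apart. Whether replicates are separate cultures is not stated in the labels, and the p-values therefore describe sample-to-sample spread that could be technical.

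Drug metabolism runs in stages. Cytochromes P450, which take electrons from the reductase Por, and the hydrolases and reductases expose or create a reactive group on a lipophilic compound. Transferases then attach glucuronic acid, sulfate or glutathione, which makes the product more water soluble and ready for export. Hepatocytes express these enzymes at high level, many of them under the receptors AHR, PXR, CAR and PPAR alpha or the factor NRF2, and cultured hepatocyte lines are known to lose part of this programme.

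Listed counts came to between 24759184 and 28704499 per library in the table of the Ang(1-7) and PA/OA groups. Ang(1-7) 2 stood apart: its chi-square per degree of freedom against the other Ang(1-7) libraries was 154 to 250 over the tables, against 15.7 to 34.0 for every other pair within a group. Of 20 nervous system markers 12 were listed, and all 12 were above 0 in Ang(1-7) 2 and 3, whereas 5 were above 0 in Ang(1-7) 1 and 4 in any PA/OA sample. Their summed level was 212 and 194 CPM (counts scaled to an equal library size) in Ang(1-7) 2 and 3, against 128 to 139 CPM in the other 4 libraries, where Mbp was highest. In those other 4 libraries Nefl, Nefm, Mog, Tubb3, Stmn2, Slc1a3 and Gad2 were at 0. These genes could be listed only through Ang(1-7) 2 and 3, so the count of 12 follows in part from the listing. The listed hemoglobin transcripts reached a total of 4.01 CPM in Ang(1-7) 2 and 2.44 CPM in Ang(1-7) 3, against at most 0.159 CPM elsewhere. The part of these libraries' other transcripts in the results was not tested, and for several named genes the log2 change is also given without Ang(1-7) 2, or without Ang(1-7) 2 and 3. Of 15 hepatocyte markers 7 were listed, summing to 615 to 885 CPM with transferrin (Trf) on top, and Tat or Apoa1 was at 0 in 4 of the 6 libraries. Cholangiocyte markers (4 of 6 listed, Krt7 on top) summed to 1135 to 1705 CPM. Macrophage markers (5 of 10 listed, Cd14 on top) summed to 670 to 811 CPM, with C1qa and C1qb above 0 only in Ang(1-7) 2 and 3. Endothelial markers reached at most 1.25 CPM. Stellate cell and fibroblast markers summed to 16.7 and 12.6 CPM in Ang(1-7) 2 and 3, against 5.98 to 8.91 CPM in the other 4 libraries. Of these markers Col1a2 and Col3a1 were above 0 only in Ang(1-7) 2 and 3. Like C1qa and C1qb, they could be listed only through these libraries.

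The 64 enzymes took a small share of the counts, 0.398%, 0.475% and 0.417% in Ang(1-7) 1 to 3, against 0.415%, 0.394% and 0.409% in PA/OA 1 to 3. Ang(1-7) 2 was highest, and the other 5 libraries lay close together. Cytosolic transferases and reductases held most of it. Gsto1, an omega-class glutathione transferase, gave 28.4% to 31.02% of the enzyme counts in a library, and Akr1a1, an aldehyde reductase, gave 13.9% to 19.3%.

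Levels of different genes were compared per kilobase of transcript, which 53 genes with a single listed transcript allowed. Gsto1 led at 1095 ± 221 CPM per kb in the Ang(1-7) group and 1005 ± 77.7 CPM per kb in the PA/OA group (SD, n = 3 each). Akr1a1 followed at 512 ± 19.4 CPM per kb in the Ang(1-7) group and 529 ± 36.9 CPM per kb in the PA/OA group. Then came Gstp1, a pi-class glutathione transferase, at 402 ± 24.5 CPM per kb in the Ang(1-7) group and 384 ± 38.2 CPM per kb in the PA/OA group. Akr1b3, the mouse aldose reductase, was the next gene down. In the PA/OA group Akr1c12 and Akr1b8, at 213 ± 9.55 and 206 ± 9.44 CPM per kb, did not differ beyond their spread. The first cytochrome P450 in this order was Cyp3a13, of the family that oxidises many drugs, in place 12, at 28.2 ± 3.51 CPM per kb in the Ang(1-7) group and 25.8 ± 1.27 CPM per kb in the PA/OA group. Cyp1a1, the classical AHR target, stood in place 51 with 12, 0 and 13 counts in Ang(1-7) 1 to 3, against 0, 3 and 11 counts in PA/OA 1 to 3. Relatives could share reads in several of these genes: 62.3% of the 50-base windows of the Gstp1 transcript also occurred in Gstp2, and 59.9% of those of Akr1b3 in other genes, chiefly the pseudogene Gm6644.

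**Figure D1:**
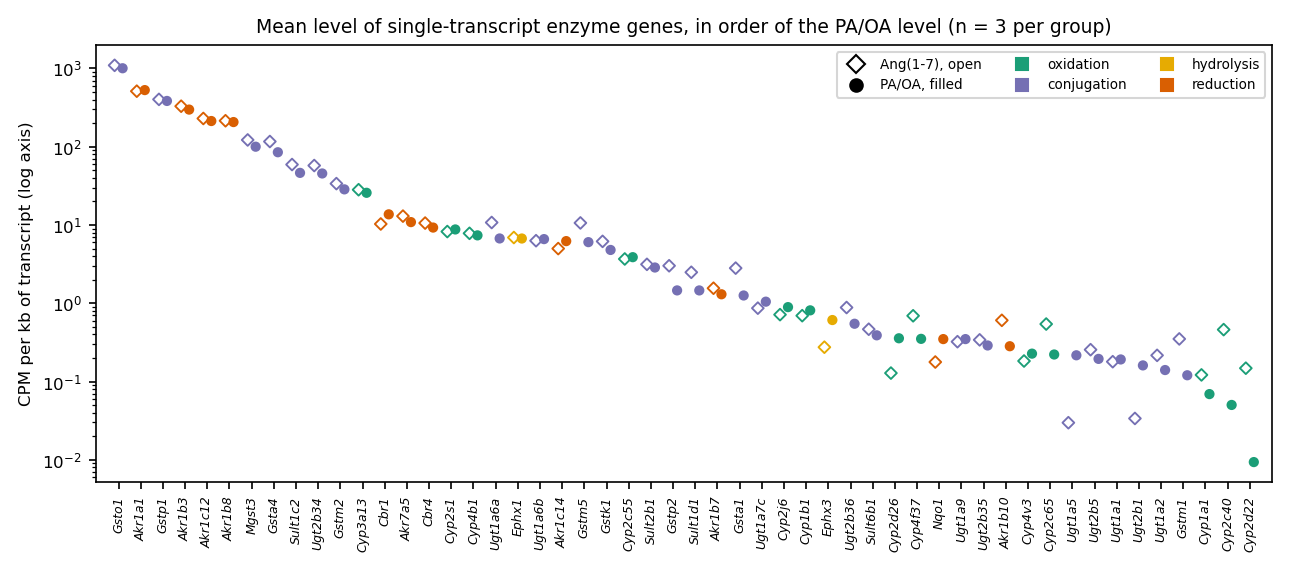
Mean level of 52 enzyme genes with a single listed transcript, in CPM per kilobase of transcript on a log axis, for the Ang(1-7) group (open diamonds) and the PA/OA group (filled circles), n = 3 each, ordered by the PA/OA level and coloured by class. Ugt1a10, at 0 in the Ang(1-7) group, cannot be drawn on a log axis. Glutathione transferases and aldo-keto reductases fill the first 8 places and Cyp3a13 stands in place 12.

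Low counts were common. The mean over the 6 libraries was under 10 counts in 6 enzymes, from 10 to under 50 in 23 and at least 50 in the other 35. The filter on low counts kept 56 of the 64 for testing and left out Ces2f, Cyp2c40, Cyp2d22, Gstm1, Nqo1, Ugt1a1, Ugt1a5 and Ugt2b1. Nqo1, the NRF2-controlled quinone reductase, had 2, 11 and 9 counts in Ang(1-7) 1 to 3, against 0, 42 and 0 counts in PA/OA 1 to 3. Ces2f, a carboxylesterase, had 24, 64 and 10 counts in Ang(1-7) 1 to 3, against 6, 5 and 4 counts in PA/OA 1 to 3, so that every Ang(1-7) library was above every PA/OA library at counts too low for the test. The tables with controls listed 34 of the 64 each, 33 of them in both, and all of these were tested.

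Fatty acids were set against no treatment to ask which enzymes change with lipid loading. In PA/OA cells Ugt1a6a and Ugt1a6b, transferases that glucuronidate planar phenols, rose, and Sult1d1, a sulfotransferase of catecholamines and phenols, and Mgst3, a membrane-bound glutathione transferase and peroxidase, fell. These were 4 of 34 enzymes (11.8%) past an adjusted p of 0.05 in edgeR's quasi-likelihood test, against 5.05% of the 6213 genes tested. The 2 that rose, which may share reads, compare with 2.82% of all genes called higher, and the 2 that fell with 2.24% called lower. All 4 belong to the 17 conjugation genes, and 0 of 7 oxidation, 0 of 9 reduction and 0 of 1 hydrolysis genes passed in edgeR. At an unadjusted p of 0.05 the enzymes numbered 9 of 34 (26.5%), against 19.4% of all genes. The median log2 change was 0.039 over the 34 enzymes and 0.013 over all genes.

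The number of enzymes called changed when single libraries were left out, and so did the share of all genes called. Without PA/OA 3 edgeR called 0 enzymes and 2.16% of all genes, and without control 1 it called 1 enzyme (Ugt1a6b) and 1.59%. With all 9 samples in a single fit 0 enzymes were called, with 33 genes (0.547%) called in all. DESeq2 called 7 enzymes, adding Akr1b3, Cyp3a13 and Mgst1, with 533 genes (8.58%) called in all. In bulk RNA, fewer cells of a kind and less RNA per cell cannot be told apart.

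The upstream sequences of 3 of the called genes are shown because these genes moved in opposite directions under the same treatment. Each run is the 250 bases before the transcription start (RefSeq, GRCm38.p6), read 5′ to 3′ on the gene's own strand, in lower case with any match to GCGTG or its reverse complement CACGC, the core of the xenobiotic response element, in capitals. Ugt1a6a lies at chr1:88134559-88134808 on the plus strand, Mgst3 at chr1:167393842-167394091 on the minus strand and Sult1d1 at chr5:87569007-87569256 on the minus strand.
Ugt1a6a: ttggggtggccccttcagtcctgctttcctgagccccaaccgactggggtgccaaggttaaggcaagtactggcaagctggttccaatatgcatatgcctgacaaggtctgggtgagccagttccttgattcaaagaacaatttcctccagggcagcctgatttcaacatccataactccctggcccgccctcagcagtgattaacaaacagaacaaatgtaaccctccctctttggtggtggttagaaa
Mgst3: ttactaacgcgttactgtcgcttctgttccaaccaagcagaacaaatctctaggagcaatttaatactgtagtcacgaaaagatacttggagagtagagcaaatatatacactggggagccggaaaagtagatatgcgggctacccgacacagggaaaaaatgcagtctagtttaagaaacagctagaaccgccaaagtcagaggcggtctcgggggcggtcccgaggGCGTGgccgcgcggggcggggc
Sult1d1: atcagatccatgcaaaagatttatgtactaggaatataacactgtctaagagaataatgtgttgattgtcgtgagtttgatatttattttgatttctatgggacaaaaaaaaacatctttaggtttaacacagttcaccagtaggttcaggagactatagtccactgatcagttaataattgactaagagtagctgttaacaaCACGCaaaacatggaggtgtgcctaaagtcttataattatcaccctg
Searched on both strands, GCGTG was not in the Ugt1a6a window, began 22 bases before the start in Mgst3, and lay on the opposite strand from base 47 before the start in Sult1d1. The same letters occurred in 28.2% of 32851 promoters of this length. Counted by gene, they occurred in 15 of the 59 enzyme genes with an entry (25.4%), against 30.9% of genes with an entry (8338 of 27025). The antioxidant response element core TGACNNNGC, on either strand, occurred in 10.2% of promoters, and in 2 of 59 enzyme genes (Gstm5 and Mgst1) against 11.5% of genes. The nuclear receptor half-site AGGTCA, on either strand, occurred in 14.02% of promoters, and in 10 of 59 enzyme genes against 15.8% of genes. Neither was in the 3 windows shown. None of these motifs is contained in another, and a match is a description of letters, not a site.

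Ugt1a6b stood at 15.6, 12.9 and 17.1 CPM in PA/OA 1 to 3, against 6.37, 7.601 and 4.06 CPM in controls 1 to 3. Every PA/OA library was above every control. The log2 fold change was 1.34 ± 0.29 (SE, adjusted p = 0.00998, edgeR), and without PA/OA 3 it was 1.25 with an adjusted p of 0.0698. Ugt1a6a stood at 15.3, 16.6 and 14.5 CPM in PA/OA 1 to 3, against 4.11, 6.71 and 9.04 CPM in controls 1 to 3. Its groups did not overlap either, although the controls spread over a wider range than the PA/OA libraries. The log2 fold change was 1.22 ± 0.29 (adjusted p = 0.0175, edgeR). Its adjusted p was 0.0726 without PA/OA 2, 0.0631 without PA/OA 3, 0.0506 without control 2 and, with a log2 change of 0.97, 0.1 without control 1.

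The transcripts of both genes share 3′ exons with the rest of the Ugt1a locus: 80.6% of the 50-base windows of Ugt1a6a were in Ugt1a6b, and 100.0% in transcripts that GENCODE M21 places under Ugt1a7c. How shared reads were assigned is unknown here, so the rise cannot be assigned to either gene alone. Ugt1a7c, of the same locus, had 3.39 ± 1.85 CPM in PA/OA cells and 2.34 ± 0.921 CPM in controls (SD, n = 3 each) and did not pass the test.

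Sult1d1 stood at 3.4, 3.899 and 3.298 CPM in PA/OA 1 to 3, against 10.1, 9.39 and 9.31 CPM in controls 1 to 3. The groups were far apart relative to their spread. The log2 fold change was -1.44 ± 0.33 (SE, adjusted p = 0.0137, edgeR), and the adjusted p was 0.065 without PA/OA 3 and 0.07399 without control 1, where the change was -1.39 and -1.40. Mgst3 stood at 113, 111 and 105 CPM in PA/OA 1 to 3, against 184, 141 and 132 CPM in controls 1 to 3. All PA/OA libraries were below all controls, of which control 1 was highest. The log2 fold change was -0.47 ± 0.11 (adjusted p = 0.0172, edgeR), against -0.31 without control 1 (adjusted p = 0.1499) and -0.44 without PA/OA 3 (adjusted p = 0.0868). Neither transcript had a 50-base window in another annotated gene.

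Mgst1, a relative of Mgst3, differed the other way but did not pass, and is named here after its values were seen. It had 9.78, 6.98 and 8.03 CPM in PA/OA 1 to 3, against 3.07, 4.66 and 4.52 CPM in controls 1 to 3, without overlap. On the log2 scale it differed by 1.02 ± 0.35 (adjusted p = 0.101, edgeR), and DESeq2 gave an adjusted p of 0.0388. The most abundant transferase did not move beyond its spread: Gsto1 had 1187 ± 83.97 CPM in PA/OA cells and 1222 ± 35.6 CPM in controls (SD, n = 3 each). The 17 conjugation genes together summed to 2042 ± 125 CPM in PA/OA cells and 2109 ± 18.3 CPM in controls.

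Oxidation genes had a median log2 change of 0.36 over 7 genes, 5 of them above 0, and none passed the test. They summed to 137, 146 and 139 CPM in PA/OA 1 to 3, against 130.2, 124 and 117 CPM in controls 1 to 3. Every PA/OA sum was above every control sum. Cyp3a13 held more of each sum than any other gene of the class, and the class median was its own log2 change. The separation of the sums therefore need not extend to the other genes of the class. Cyp3a13 had 72.6, 80.9 and 75.2 CPM in PA/OA 1 to 3, against 67.2, 57.2 and 54.2 CPM in controls 1 to 3. The groups did not overlap, and the log2 fold change was 0.36 ± 0.12 (adjusted p = 0.0983, edgeR), with an adjusted p of 0.0436 by DESeq2. Cyp1b1, an AHR target that oxidises steroids and polycyclic hydrocarbons, had 4.17, 4.48 and 3.84 CPM in PA/OA 1 to 3, against 2.703, 3.02 and 1.84 CPM in controls 1 to 3 (log2 fold change 0.72 ± 0.46, adjusted p = 0.423, edgeR). These groups did not overlap, at low levels. Cyp2s1, a P450 also induced through AHR, was lower in each PA/OA library with 25.2, 23.8 and 23.2 CPM in PA/OA 1 to 3, against 29.9, 34.3 and 30.5 CPM in controls 1 to 3 (log2 fold change -0.39 ± 0.16, adjusted p = 0.176, edgeR). Por itself had 11.1 ± 1.76 CPM in PA/OA cells and 11.2 ± 2.01 CPM in controls (SD, n = 3 each).

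Reduction genes had a median log2 change of -0.083, with 3 of 9 above 0. They summed to 1848, 1759 and 1818 CPM in PA/OA 1 to 3, against 1922, 1905 and 1987 CPM in controls 1 to 3, again without overlap. Akr1b3 differed most in CPM, with 427, 389.8 and 423 CPM in PA/OA 1 to 3, against 497, 448 and 504 CPM in controls 1 to 3. The change was -0.23 ± 0.071 on the log2 scale (adjusted p = 0.0687, edgeR), and it passed without PA/OA 1 (-0.26) and by DESeq2 (adjusted p = 0.0245). Akr1a1, the most abundant of the class, had 750.5 ± 48.96 CPM in PA/OA cells and 762 ± 22.9 CPM in controls (SD, n = 3 each).

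Across all classes 13 of 34 enzymes (38.2%) had groups that did not overlap between PA/OA and control, against 23.8% of all genes. PA/OA was higher in 6 of them, against 12.2% of all genes, and lower in 7, against 11.6% of all genes. Beside the genes above these were Cyp2j6 with PA/OA higher and Akr1c12, Sult1c2 and Ugt2b34 with PA/OA lower. The 6 with PA/OA higher included Ugt1a6a and Ugt1a6b, which may share reads. Sult1c2, a cytosolic sulfotransferase, had 90.1, 76.3 and 89.9 CPM in PA/OA 1 to 3, against 109, 95.9 and 109 CPM in controls 1 to 3 (log2 fold change -0.29 ± 0.11, adjusted p = 0.131, edgeR).

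**Figure D2:**
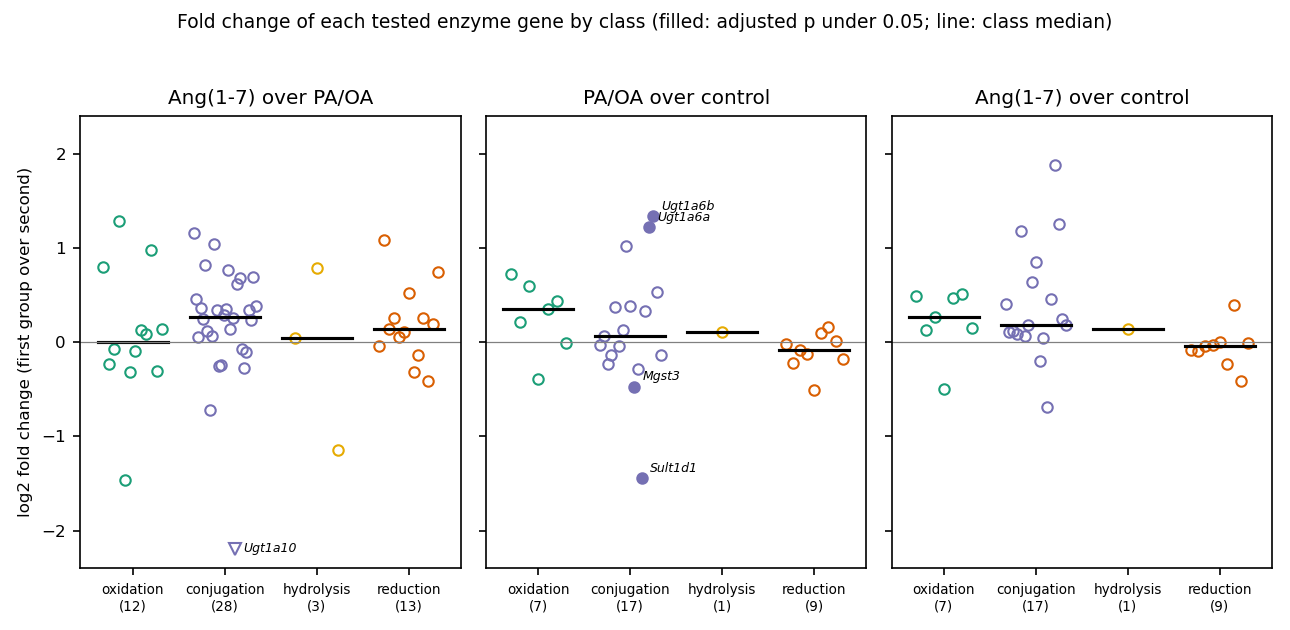
Log2 fold change (edgeR) of each tested enzyme gene by class, for Ang(1-7) over PA/OA, PA/OA over control and Ang(1-7) over control. Filled points passed an adjusted p of 0.05, lines are class medians, numbers in brackets count genes, and the triangle marks Ugt1a10, at 0 in the Ang(1-7) group, beyond the axis. The 4 filled points, Ugt1a6a, Ugt1a6b, Sult1d1 and Mgst3, are all conjugation genes of PA/OA over control.

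Ang(1-7) with fatty acids was set against fatty acids alone to ask what the peptide changes in loaded cells. None of the 56 tested enzymes was called by edgeR, and 0% of the 9261 genes tested were called. At an unadjusted p of 0.05 the enzymes numbered 2 (Gstm5 and Ugt1a10, 3.57%) and all genes 236 (2.55%), and DESeq2 called 5 genes, none of them an enzyme. Ugt1a10 was at 0 in all Ang(1-7) libraries and passed the filter on low counts through the PA/OA libraries alone, so its p follows in part from that selection. The median log2 change was 0.14 over the enzymes and -0.009 over all genes, and 38 of 56 enzymes (67.9%) were above 0, against 49.1% of all genes. Without Ang(1-7) 2 the enzymes' median was 0.047 and 32 of 58 tested were above 0. Without Ang(1-7) 2 and 3 it was -0.088, with 24 of 63 above 0. Without Ang(1-7) 1 edgeR called 18 genes and 0 enzymes.

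Among conjugation genes the median was 0.27. Gstm5, a mu-class glutathione transferase, had 9.02, 12.8 and 8.33 CPM in Ang(1-7) 1 to 3, against 6.21, 4.41 and 6.49 CPM in PA/OA 1 to 3. Sult1d1 had 4.77, 7.83 and 5.47 CPM in Ang(1-7) 1 to 3, against 3.42, 3.87 and 3.31 CPM in PA/OA 1 to 3. In both genes every Ang(1-7) library lay above every PA/OA library and Ang(1-7) 2 was highest. The log2 fold change was 0.81 ± 0.31 for Gstm5 and 0.77 ± 0.35 for Sult1d1 (SE, adjusted p = 0.965 for each, edgeR), and 0.62 and 0.55 without Ang(1-7) 2. They were 0.67 and 0.44 without Ang(1-7) 2 and 3. Ugt2b34, of the Ugt2b group that conjugates steroids and drugs, had 148, 217 and 162 CPM in Ang(1-7) 1 to 3, against 138, 138 and 139.9 CPM in PA/OA 1 to 3 (log2 fold change 0.34 ± 0.16, adjusted p = 0.965, edgeR). Sult1c2 had 96.8, 137 and 94.1 CPM in Ang(1-7) 1 to 3, against 90.6, 75.7 and 90.2 CPM in PA/OA 1 to 3 (log2 fold change 0.35 ± 0.18, adjusted p = 0.965, edgeR). These groups did not overlap, and without Ang(1-7) 2 the changes were 0.17 for Ugt2b34 and 0.17 for Sult1c2, and without Ang(1-7) 2 and 3 they were 0.10 and 0.19.

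Groups did not overlap between Ang(1-7) and PA/OA in 9 of 56 enzymes (16.1%), against 11% of all genes. Ang(1-7) was higher in 6 (Gstm5, Sult1d1, Sult1c2, Ugt2b34, Cyp4f37 and Gsta1), against 4.6% of all genes, and lower in 3 (Cbr1, Ephx3 and Ugt1a10), against 6.37% of all genes. Since Ugt1a10 passed the filter through PA/OA alone, its groups had to differ, and it lends no support to the count. Gsta1 is named after its values were seen. Cbr1, a carbonyl reductase of quinones and prostaglandins, had 11.5, 14.2 and 12.5 CPM in Ang(1-7) 1 to 3, against 16.6, 16.1 and 18.1 CPM in PA/OA 1 to 3. The change was -0.41 ± 0.22 on the log2 scale (adjusted p = 0.965, edgeR) and -0.48 without Ang(1-7) 2, or -0.55 without Ang(1-7) 2 and 3. Ephx3, an epoxide hydrolase, had 21, 24 and 7 counts in Ang(1-7) 1 to 3, against 32, 27 and 55 counts in PA/OA 1 to 3. Ugt1a10, a transferase of the Ugt1a locus, had 0, 0 and 0 counts in Ang(1-7) 1 to 3, against 14, 20 and 25 counts in PA/OA 1 to 3. That is at least 6.68-fold lower with the Ang(1-7) libraries set at a floor of 3 counts each, which covers counting error only, and it did not pass the test. Of its 50-base windows 66.2% occurred in other genes, chiefly Ugt1a9.

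Mgst3 had 122, 168 and 111 CPM in Ang(1-7) 1 to 3, against 114, 110.2 and 105 CPM in PA/OA 1 to 3 (log2 fold change 0.29 ± 0.17, adjusted p = 0.965, edgeR), and the change was 0.10 without Ang(1-7) 2 and 0.17 without Ang(1-7) 2 and 3. Ang(1-7) 2 was the highest library, and Ang(1-7) 3 lay within the range of PA/OA. Sult1d1 and Mgst3, lower in PA/OA than in control, are compared here with the same PA/OA libraries, so the changes in these 2 comparisons are not independent.

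**Figure D3:**
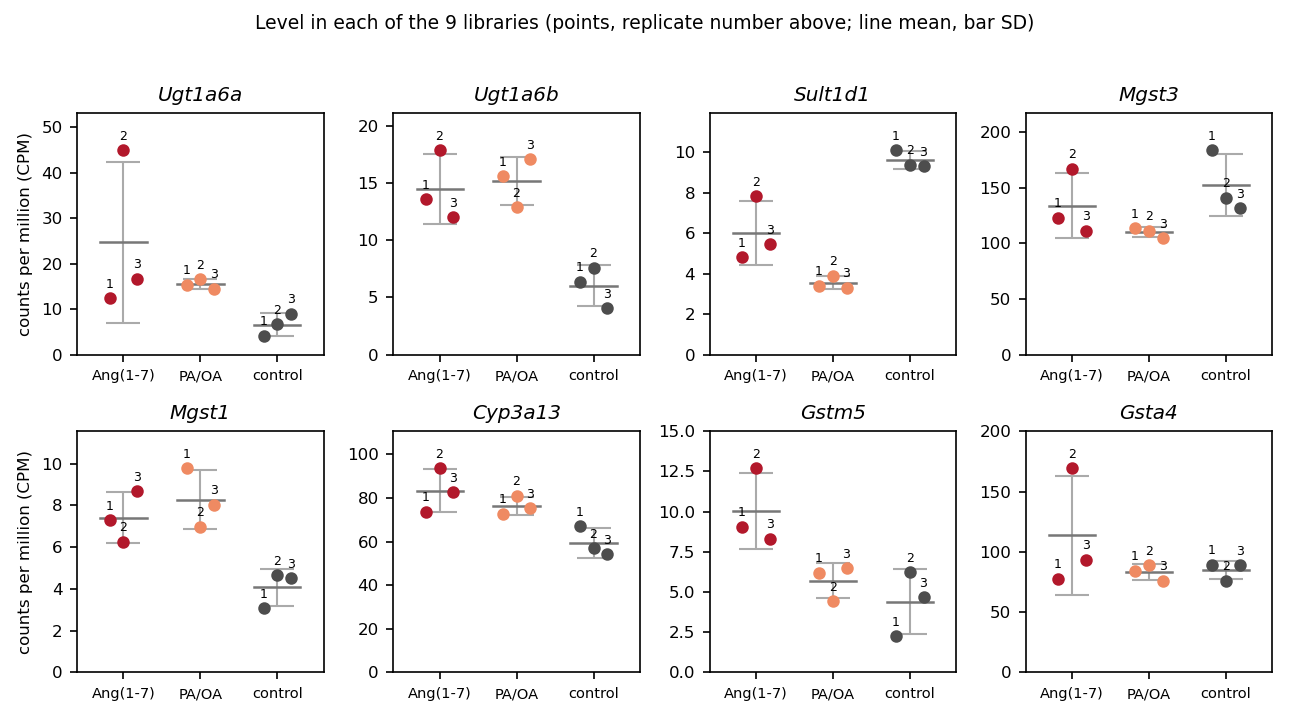
CPM of 8 enzyme genes in the Ang(1-7), PA/OA and control libraries (left to right), from the transcripts listed in all 3 tables with all 9 libraries scaled together, so that values can differ slightly from those within a table. Points are libraries with their replicate number, lines are means and bars are SDs (n = 3). Ugt1a6a, Ugt1a6b, Mgst1 and Cyp3a13 are above control in both fatty acid groups, Sult1d1 is below it, and Ang(1-7) 2 is far above the other libraries for Ugt1a6a and Gsta4.

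Ang(1-7) 2 held the highest of 6 levels for 30 of the 56 enzymes (53.6%), against 29.4% of all genes, and the lowest for 7 (12.5%), against 37.4% of all genes. Ugt1a6a had 12.3, 45.1 and 16.7 CPM in Ang(1-7) 1 to 3, against 15.4, 16.4 and 14.5 CPM in PA/OA 1 to 3. Its log2 change of 0.68 ± 0.43 (adjusted p = 0.965, edgeR) was -0.079 without Ang(1-7) 2. Ugt1a6b had 13.5, 17.95 and 12.05 CPM in Ang(1-7) 1 to 3, against 15.7, 12.8 and 17.1 CPM in PA/OA 1 to 3 (log2 fold change -0.068 ± 0.25, adjusted p = 0.981, edgeR), and its groups overlapped, with a change of -0.24 without Ang(1-7) 2. Gsta4, the glutathione transferase of 4-hydroxynonenal, a product of lipid peroxidation, had 77.4, 170.1 and 93.8 CPM in Ang(1-7) 1 to 3, against 84.5, 88.2 and 76.3 CPM in PA/OA 1 to 3. Its log2 change of 0.46 ± 0.26 (adjusted p = 0.965, edgeR) was 0.057 without Ang(1-7) 2. Cyp1b1 was lowest in that library with 6.62, 0.715 and 3.35 CPM in Ang(1-7) 1 to 3, against 4.19, 4.45 and 3.85 CPM in PA/OA 1 to 3, and its log2 change of -0.23 ± 0.65 (adjusted p = 0.979, edgeR) was 0.27 without it.

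**Figure D4:**
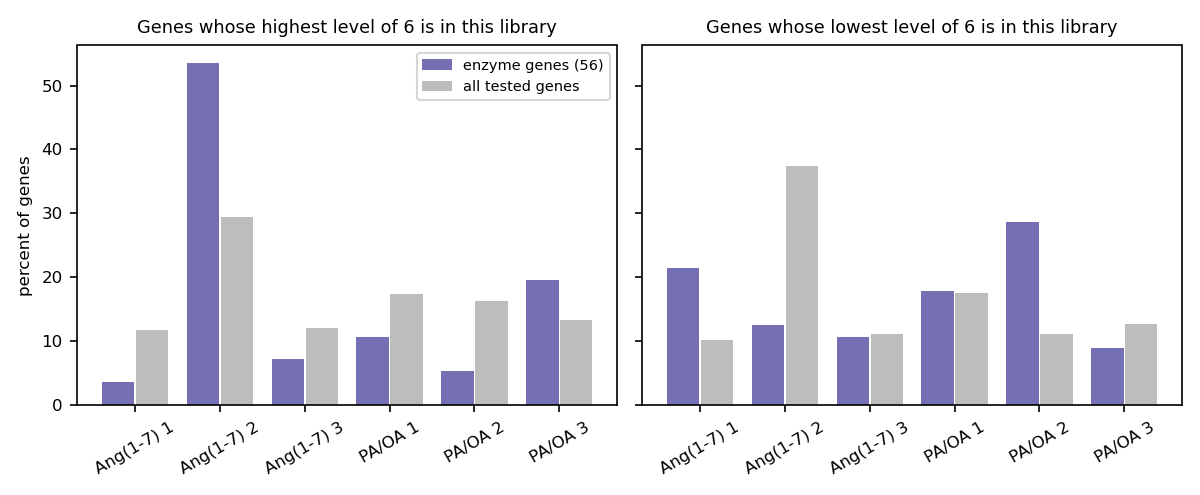
Percent of genes whose highest (left panel) or lowest (right panel) level among the 6 libraries lies in each library, for the 56 tested enzyme genes and for all tested genes. Ang(1-7) 2 holds the highest level of 53.6% of the enzymes against 29.4% of all genes, and the lowest of 12.5% against 37.4%.

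Class sums are given here as a description. Conjugation genes summed to 1993, 2842 and 2119 CPM in Ang(1-7) 1 to 3, against 2181, 1909 and 2083 CPM in PA/OA 1 to 3. Reduction genes summed to 1737, 2102 and 1775 CPM in Ang(1-7) 1 to 3, against 1861, 1752 and 1828 CPM in PA/OA 1 to 3. Oxidation genes summed to 138, 174 and 148 CPM in Ang(1-7) 1 to 3, against 142, 149.6 and 142 CPM in PA/OA 1 to 3. In each of these 3 classes Ang(1-7) 2 was above the other 5 libraries, and Ang(1-7) 1 and 3 lay within or below the range of PA/OA. The 4 hydrolysis genes summed to 13.1, 16.2 and 16.1 CPM in Ang(1-7) 1 to 3, against 13.3, 11.99 and 16.9 CPM in PA/OA 1 to 3, with PA/OA 3 highest. Among the 35 tested enzymes that averaged 50 counts or more, 24 were above 0 with all libraries and 18 without Ang(1-7) 2. Gstz1, named after its values were seen, had 2.76, 7.04 and 1.599 CPM in Ang(1-7) 1 to 3, against 4.47, 2.59 and 1.94 CPM in PA/OA 1 to 3, again with Ang(1-7) 2 highest.

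**Figure D5:**
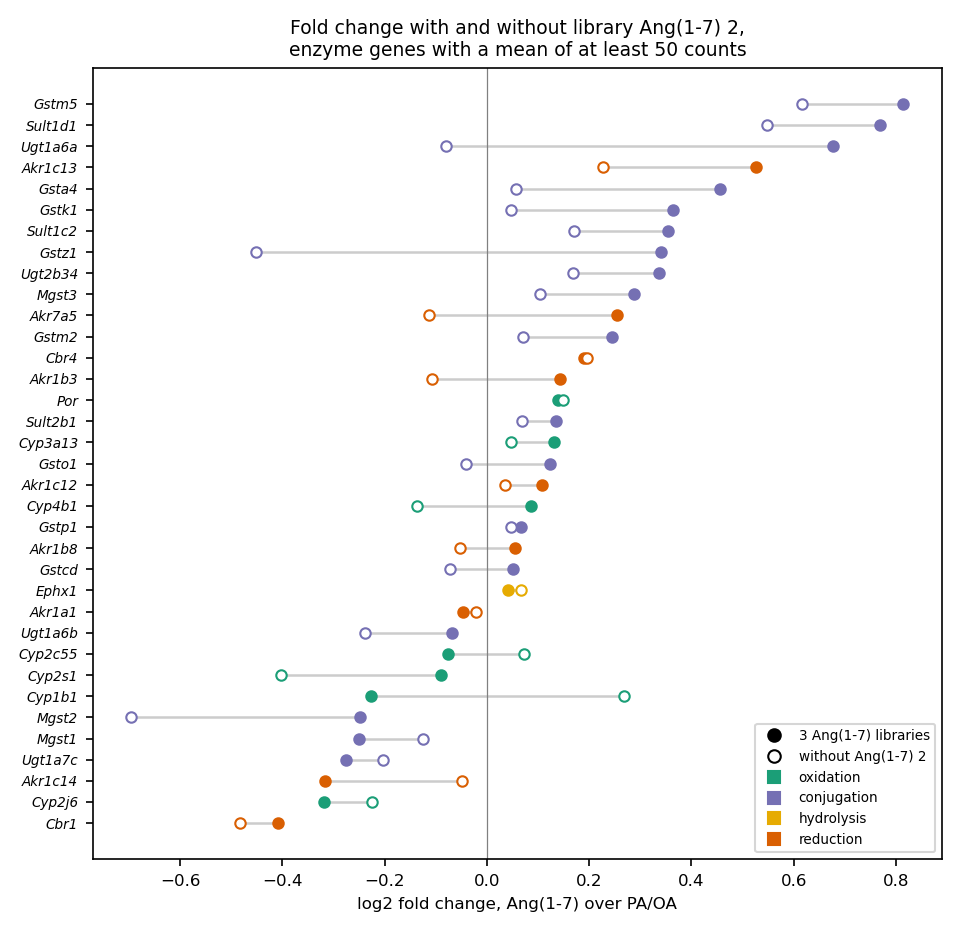
Log2 fold change of Ang(1-7) over PA/OA for the 35 tested enzyme genes that averaged 50 counts or more, with all 3 Ang(1-7) libraries (filled) and without Ang(1-7) 2 (open), coloured by class. For 24 of the 35 the open point is nearer 0, and Gstm5 and Sult1d1 are at 0.62 and 0.55 without that library.

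In Ang(1-7) with fatty acids against no treatment edgeR called 0 of 34 enzymes, with 0.245% of 6134 genes called. At an unadjusted p of 0.05 the enzymes numbered 5 (Cyp3a13, Gstm5, Mgst1, Ugt1a6a and Ugt1a6b, 14.7%), against 14.9% of all genes. DESeq2 called 2 enzymes, Ugt1a6a and Ugt1a6b, which may share reads, with 259 genes (4.22%) called in all. The controls are those of the comparison of PA/OA with control, so values that point the same way are not separate evidence. Without Ang(1-7) 2 edgeR called 4 enzymes, with Ugt1a6a and Ugt1a6b higher and Akr1b3 and Cyp2s1 lower, among 624 genes (10.2%). Groups did not overlap in 7 of 34 enzymes (20.6%), against 26.5% of all genes. Ang(1-7) was higher in the 5 named above, against 13.2% of all genes, and lower in 2 (Cbr1 and Sult1d1), against 13.3%. The 5 included Ugt1a6a and Ugt1a6b, which may share reads. Of the enzymes 23 of 34 (67.6%) had a log2 change above 0, against 51.6% of all genes, and PA/OA against control gave 18 of 34 (52.9%), against 52%. Without Ang(1-7) 2 the count in Ang(1-7) against control was 18 of 34, with a median of 0.013 against 0.13 with all libraries, and without Ang(1-7) 2 and 3 it was 16, with a median of -0.061.

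Ugt1a6a had 12.3, 43.97 and 16.5 CPM in Ang(1-7) 1 to 3, against 4.09, 6.68 and 9.01 CPM in controls 1 to 3, and Ang(1-7) 2 stood alone at the top. On the log2 scale the change was 1.88 ± 0.52 (adjusted p = 0.173, edgeR), and without Ang(1-7) 2 it was 1.13 with an adjusted p of 0.0393. Ugt1a6b had 13.5, 17.5 and 11.9 CPM in Ang(1-7) 1 to 3, against 6.34, 7.57 and 4.05 CPM in controls 1 to 3. For Ugt1a6b the log2 change was 1.26 ± 0.32 (adjusted p = 0.166, edgeR), and without Ang(1-7) 2 it was 1.09 with an adjusted p of 0.04296. Without Ang(1-7) 2 and 3 the log2 changes were 0.90 for Ugt1a6a and 1.17 for Ugt1a6b. In both genes each Ang(1-7) library was above each control.

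Cyp3a13 had 73.2, 91.7 and 82 CPM in Ang(1-7) 1 to 3, against 66.9, 56.96 and 54.01 CPM in controls 1 to 3 (log2 fold change 0.47 ± 0.15, adjusted p = 0.2098, edgeR). Gstm5 had 9.01, 12.4 and 8.25 CPM in Ang(1-7) 1 to 3, against 2.25, 6.24 and 4.66 CPM in controls 1 to 3 (log2 fold change 1.17 ± 0.42, adjusted p = 0.262, edgeR). Mgst1 had 7.24, 6.12 and 8.62 CPM in Ang(1-7) 1 to 3, against 3.06, 4.64 and 4.51 CPM in controls 1 to 3 (log2 fold change 0.85 ± 0.35, adjusted p = 0.308, edgeR). In all 3 genes the Ang(1-7) libraries lay above the controls without overlap. Without Ang(1-7) 2 the log2 changes were 0.39 for Cyp3a13, 0.98 for Gstm5 and 0.96 for Mgst1, and without Ang(1-7) 2 and 3 they were 0.30, 1.04 and 0.83 in the same order.

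Sult1d1 had 4.76, 7.63 and 5.42 CPM in Ang(1-7) 1 to 3, against 10.1, 9.36 and 9.28 CPM in controls 1 to 3 (log2 fold change -0.69 ± 0.30, adjusted p = 0.336, edgeR). Each Ang(1-7) library was below each control, and the change was -0.91 without Ang(1-7) 2 and -1.01 without Ang(1-7) 2 and 3. Cyp2s1 had 15.9, 30.95 and 20.04 CPM in Ang(1-7) 1 to 3, against 29.8, 34.2 and 30.4 CPM in controls 1 to 3. Ang(1-7) 2 alone reached the control range, and the log2 fold change was -0.50 ± 0.26 (adjusted p = 0.406, edgeR), against -0.81 without it (adjusted p = 0.0123). With Ang(1-7) 1 as the only Ang(1-7) library the change was -0.99. Akr1b3 had 396, 593 and 361 CPM in Ang(1-7) 1 to 3, against 495, 447 and 503 CPM in controls 1 to 3. Ang(1-7) 2 was above all controls and the other Ang(1-7) libraries below them. The log2 change was -0.10 ± 0.18 (adjusted p = 0.829, edgeR), against -0.35 without Ang(1-7) 2 (adjusted p = 0.00643) and -0.28 without Ang(1-7) 2 and 3.

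Genes around these enzymes were counted in 4 lists outside the symbol rule. The list of regulators and cofactors held 19 genes, with receptors and suppliers of electrons, glucuronic acid and sulfate among them. The genes of PXR and CAR (Nr1i2 and Nr1i3) and the sulfate supplier Papss2 were tested in no comparison. Rxra and the sulfate supplier Papss1 were tested only in Ang(1-7) against PA/OA. In this list edgeR called 0 of 12 tested in Ang(1-7) against PA/OA, 0 of 10 in PA/OA against control and 0 of 10 in Ang(1-7) against control. Among glutathione synthesis genes and NRF2 targets the counts were 0 of 18, 1 of 15 and 0 of 15 in the same order of comparisons. Among other oxidases, dehydrogenases and transferases they were 0 of 19, 3 of 16 and 1 of 16, and among transporters 0 of 9, 1 of 5 and 0 of 5. Of all genes tested 0%, 5.05% and 0.245% were called in these comparisons. In PA/OA against control the list medians of log2 change were -0.069 for regulators, 0.00037 for glutathione genes and NRF2 targets, 0.33 for other oxidases and 0.063 for transporters, against 0.013 over all genes.

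The called genes were aldehyde, monoamine and heme enzymes and a transporter. Aldh1a1, a retinaldehyde dehydrogenase, rose to 1253 ± 67.2 CPM in PA/OA cells, against 503 ± 17.2 CPM in controls (SD, n = 3 each), a log2 fold change of 1.32 ± 0.063 (adjusted p = 8.36e-12, edgeR). It also rose to 1384 ± 133 CPM in Ang(1-7) cells, against 502 ± 17.04 CPM in controls (log2 fold change 1.46 ± 0.10, adjusted p = 0.000652, edgeR). Its close relative Aldh1a7, with which it may share reads, rose to 21.4 ± 3.34 CPM in PA/OA cells, against 7.36 ± 1.79 CPM in controls (log2 fold change 1.54 ± 0.25, adjusted p = 0.000729, edgeR). Maoa, a mitochondrial monoamine oxidase, fell to 561 ± 40.01 CPM in PA/OA cells, against 737 ± 34.2 CPM in controls (log2 fold change -0.39 ± 0.068, adjusted p = 0.00157, edgeR), with an adjusted p of 0.22 when all 9 samples were fitted together. In PA/OA against control these 3 genes were called in all 6 fits that left out a library.

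Hmox1, the heme oxygenase induced through NRF2, rose to 105 ± 7.94 CPM in PA/OA cells, against 77.1 ± 10.6 CPM in controls (log2 fold change 0.45 ± 0.12, adjusted p = 0.0266, edgeR). Without PA/OA 1, 2 and 3 in turn its adjusted p was 0.0718, 0.0814 and 0.0537, and without control 2 and 3 it was 0.103 and 0.109. Slco3a1, an organic anion transporter, rose to 156 ± 10.6 CPM in PA/OA cells, against 116 ± 13.2 CPM in controls (log2 fold change 0.42 ± 0.10, adjusted p = 0.0168, edgeR). Without PA/OA 2 and 3 in turn its adjusted p was 0.0877 and 0.0588, and without control 1 and 2 it was 0.114 and 0.0665.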

How the data were processed

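Total RNA of 9 AML12 samples, 3 per group by their labels, was sequenced. The authors deposited 3 tables, 1 per pair of groups, holding unnormalized counts for each RefSeq transcript. HISAT2, HTSeq 0.11.2 and bcl2fastq appear in the submitters' processing notes, which also name a human build although the transcripts are mouse, so no positions were taken from the tables. Annotation release, strand setting and treatment of shared reads were not given in the sources used here, so antisense and paralogous genes may share reads. Tables can list different transcripts of a gene.

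Counts were summed per gene symbol and tested within each table by edgeR 4.0.16 (R 4.3.3): filterByExpr, TMM scaling and the quasi-likelihood test without a replicate term, with Benjamini-Hochberg adjustment over all genes tested and a threshold of 0.05. Levels are CPM with that scaling (mean ± SD, n = 3 per group), except marker and hemoglobin levels, which are CPM without it. Fold changes are log2 with the model's standard error. Depth was 24588312 to 28704499 listed counts per library. The labels describe no molecular identifiers, so floors cover counting error only. The code was tested on simulated data. Same-numbered samples deviated together with correlations of -0.067 to 0.052, so the numbers were not used as pairs.

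The members and gene lists were chosen with earlier results of these data known. Named genes were, per class, the 6 of most counts, the 3 of lowest unadjusted p per comparison and the highest and lowest change of Ang(1-7) against PA/OA with a mean of at least 50 counts, all called members, and, where listed, Por, Nqo1, Ephx1, Cyp1a1, Cyp1b1, Gsta4, Gstm1, Gstp1, Ugt1a6a, Sult1d1, Akr1b8, Akr1b3, Cbr1 and Cbr3. Shared 50-base windows came from GENCODE M21 transcripts and promoters from RefSeq. Alternatives were DESeq2 size factors, the DESeq2 1.42.0 test, no filter, the replicate block, curated transcripts only, all 9 samples in 1 fit and each sample left out.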

Additional observations from a re-analysis of the deposited data

How the results depend on the processing

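Of 427 alternative values of the 34 log2 changes given, 383 kept direction and side of the threshold, 25 lost a call, 11 gained one and 8 changed sign. In Ang(1-7) against PA/OA the changes with a library left out ranged from -1.03 to 0.27 for Cyp1b1, from -0.079 to 0.999 for Ugt1a6a and from -0.24 to 0.049 for Ugt1a6b. Leaving out Ang(1-7) 2 and 3 together, chosen after seeing the data, gave 0.68 for Cyp1b1, -0.092 for Gsta4 and -0.32 for Ugt1a6a. In Ang(1-7) against control Akr1b3 ranged from -0.35 to 0.040. The causes were not tested.

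Genes called in Ang(1-7) against PA/OA numbered 0, 5 by DESeq2 and 0 to 18 with a library left out, and enzymes 0 in each of these. In PA/OA against control genes called numbered 314, 533 by DESeq2, 33 with all 9 samples in 1 fit and 99 to 397 with a library left out, and enzymes 4, 7, 0 and 0 to 5 in the same order. In Ang(1-7) against control genes called numbered 15, 259 by DESeq2, 27 with curated transcripts only, 100 with all 9 samples in 1 fit, 4 to 624 with a library left out and 229 without Ang(1-7) 2 and 3. Enzymes called there numbered 0, 2 by DESeq2 and 0 to 4 with a library left out. With the replicate block, genes called numbered 0 in Ang(1-7) against PA/OA, 303 in PA/OA against control and 10 in Ang(1-7) against control, and enzymes 0, 4 and 0. Where a fit left an arm with 1 library, that library is assumed to vary like the other group. DESeq2 size factors and no filter moved no count of calls by over 1.5 times. Depth limits the enzymes with a mean under 50 counts.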
